A study of Mus musculus with 6 samples.

Results

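The genes described here are 35 members of the antioxidant defence of the cell: the transcription factor NRF2 and its inhibitor KEAP1, enzymes whose genes NRF2 is known to switch on, the genes of glutathione supply and use, the thioredoxin system, the superoxide dismutases, catalase, the peroxiredoxins and the metallothioneins. They were picked by gene name out of 20659 genes that could be named on the array. All 35 names matched at least 1 probe, and together they had 47 of the 39429 probes. Of these, 45 probes of 34 genes passed the filter on dim probes, and each of the 45 read well above the background on all 6 arrays.

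Total RNA came from the ventricles of female C57BL/6N mice aged 21 weeks and was hybridised to 1-colour Agilent expression arrays. One group of 3 arrays came from mice whose sleep had been fragmented for 5 weeks, and the other group of 3 arrays from control mice that had been left undisturbed. The labels name no genotype, drug or transgene in either group and do not say how sleep was interrupted. They also do not state that each array was a separate animal, so p-values measure the spread of these samples alone, and that spread may be technical. In every list of values the replicates are in the order 1, 2, 3.

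NRF2 is a transcription factor that KEAP1 holds in the cytosol and marks for degradation. Oxidants and electrophiles modify cysteines of KEAP1, so that NRF2 reaches the nucleus and binds antioxidant response elements together with small Maf proteins. Heart muscle, which is rich in mitochondria, removes superoxide through the dismutases and the resulting peroxide through catalase, glutathione peroxidases and peroxiredoxins. Glutathione and thioredoxin return the peroxidases and peroxiredoxins, but not catalase or the dismutases, to their reduced state. Metallothioneins bind zinc and copper through their cysteines, and their genes answer to metals through metal response elements as well as to glucocorticoids.

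The RefSeq promoter table of build GRCm38.p6 (250 bases before to 50 bases after a gene's start) held an entry for 29 of the 35 genes. An antioxidant response element was searched as TGACNNNGC on both strands. It occurred in 12.4% of all 32851 promoters and in 8 of the 29 member genes, namely Nfe2l2, Srxn1, Gclm, Txnrd1, Prdx1, Sod1, Gsta3 and Mt2. The 29 genes had 36 promoters. A count of genes and a share of promoters are therefore unlike measures, here and for the elements below. A longer form, which adds an A at the end, occurred in 3.04% of all promoters and in 2 members, Gsta3 and Txnrd1. Hmox1, Gclc, Gsr, Sod3, Prdx6 and Gsta4 had no entry. A match is a description of letters and not a shown binding site. The 5 windows below are printed because they carry the match in an enzyme gene of each branch of the system (conjugation, thioredoxin reduction, peroxide removal, glutathione supply and superoxide removal). Each is on the plus strand, read 5′ to 3′, and the capitals mark the 9 bases of the element on either strand.
Gsta3, chr1:21240435-21240504: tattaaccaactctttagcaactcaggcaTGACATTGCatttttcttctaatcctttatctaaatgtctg
Txnrd1, chr10:82859086-82859155: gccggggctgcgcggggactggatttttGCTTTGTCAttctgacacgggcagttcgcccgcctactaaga
Prdx1, chr4:116685439-116685508: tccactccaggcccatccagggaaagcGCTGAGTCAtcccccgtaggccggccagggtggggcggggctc
Gclm, chr3:122245397-122245466: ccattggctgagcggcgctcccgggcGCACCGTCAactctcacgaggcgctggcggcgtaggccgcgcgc
Sod1, chr16:90220672-90220741: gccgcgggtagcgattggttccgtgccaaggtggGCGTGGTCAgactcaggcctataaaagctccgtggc

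Metal response elements were searched as TGCACNC and TGCGCNC on both strands. The first form occurred in 12.6% of all promoters and in 4 members (Glrx, Gstm1, Mt1 and Mt2). The second occurred in 15.4% of all promoters and in 6 members (Srxn1, Gclm, Txnrd2, Prdx4, Mt1 and Mt2), and in Gclm 1 of its matches overlaps the antioxidant response element. The windows just before the starts of both metallothionein genes are printed because these genes are known metal targets. The capitals mark the metal response elements and, in Mt2, also the antioxidant response element TGACTCAGC.
Mt1, chr8:94179019-94179088: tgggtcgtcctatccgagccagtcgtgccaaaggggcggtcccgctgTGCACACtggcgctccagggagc
Mt2, chr8:94172478-94172617: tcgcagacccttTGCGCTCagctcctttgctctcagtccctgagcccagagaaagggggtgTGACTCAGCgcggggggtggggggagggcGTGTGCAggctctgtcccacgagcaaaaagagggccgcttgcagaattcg

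Each value below is the log2 signal of a probe minus the 75th percentile of its array, so 0 is the level of that percentile, and values are compared between groups for 1 probe at a time. The share of probes above background ran between 59.2% (sleep fragmented replicate 1) and 72.6% (sleep fragmented replicate 3), and no spot was saturated. All 3 sleep fragmented arrays share 1 scan time and all 3 control arrays another, so scan and group cannot be told apart. The mean log2 signal of 7 heart muscle markers was 6.86, 6.16 and 6.38 on the sleep fragmented arrays and 6.43, 6.17 and 6.42 on the control arrays. This mean does not tell ventricle from atrium. The means of the atrial and fat markers set replicate 2 of both groups apart. The 4 measured of 5 atrial markers (Sln was not) averaged -0.06, 4.37 and 1.62 on the sleep fragmented arrays and -0.48, 3.21 and 1.40 on the control arrays. Of these, Myl4, Myl7 and Nppa were highest on replicate 2 of both groups. Bmp10 was highest on sleep fragmented replicate 2 (-0.34) but the lowest of the 6 arrays on control replicate 2 (-2.996). The 4 measured of 6 adipocyte markers (Plin1 and Lep were not) averaged 0.23, 3.49 and 0.65 in the sleep fragmented group and -0.27, 2.81 and 1.13 in the control group. The mean of the 5 erythroid markers reported was higher on each sleep fragmented array, with 5.20, 4.01 and 3.57 against 2.72, 3.02 and 2.95 on the control arrays. Of the 5, 4 had an unadjusted p under 0.05, while the groups of Slc4a1 overlapped. In bulk tissue, fewer cells of a type and less RNA per cell cannot be told apart.

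For no antioxidant gene could sleep fragmented ventricles be told apart from control ventricles beyond the spread of the arrays. Of the 34 measured members, 0 passed a limma adjusted p of 0.05, as did 0.0% of the 14550 measured genes, so this count says nothing particular about the members. At an unadjusted p under 0.05 there were 0 members, where 2.96% of all genes passed. The lowest member p was 0.0558, for Nqo1, and adjusted p-values of the members ran between 0.938 and 0.991. The log2 fold changes of the members lay between -0.53 (Nqo1) and 0.36 (Gpx1), none reached 1.5-fold, and 20 of the 34 were within 0.1 of no difference.

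Of the 34 members, 18 had a log2 fold change above 0 and 16 below (52.9% above, where 58.7% of all genes were above). Their median log2 fold change was 0.01, where that of all genes was 0.05. The median size of the log2 fold change, whatever its sign, was 0.08 over the members and 0.16 over all genes. The median SD within groups was likewise lower, at 0.19 over the members and 0.26 over all genes. The data bound the size of a difference for most members: for 19 of 34 (55.9%) the 95% interval lay within 1.5-fold in both directions, as it did for 35.9% of all genes. For 31 members (91.2%) it lay within 2-fold, as it did for 85.6% of all genes, and the 3 exceptions were Nqo1, Gpx1 and Gpx3. Other scalings move the estimates, and these intervals were not counted under them.

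**Figure D1:**
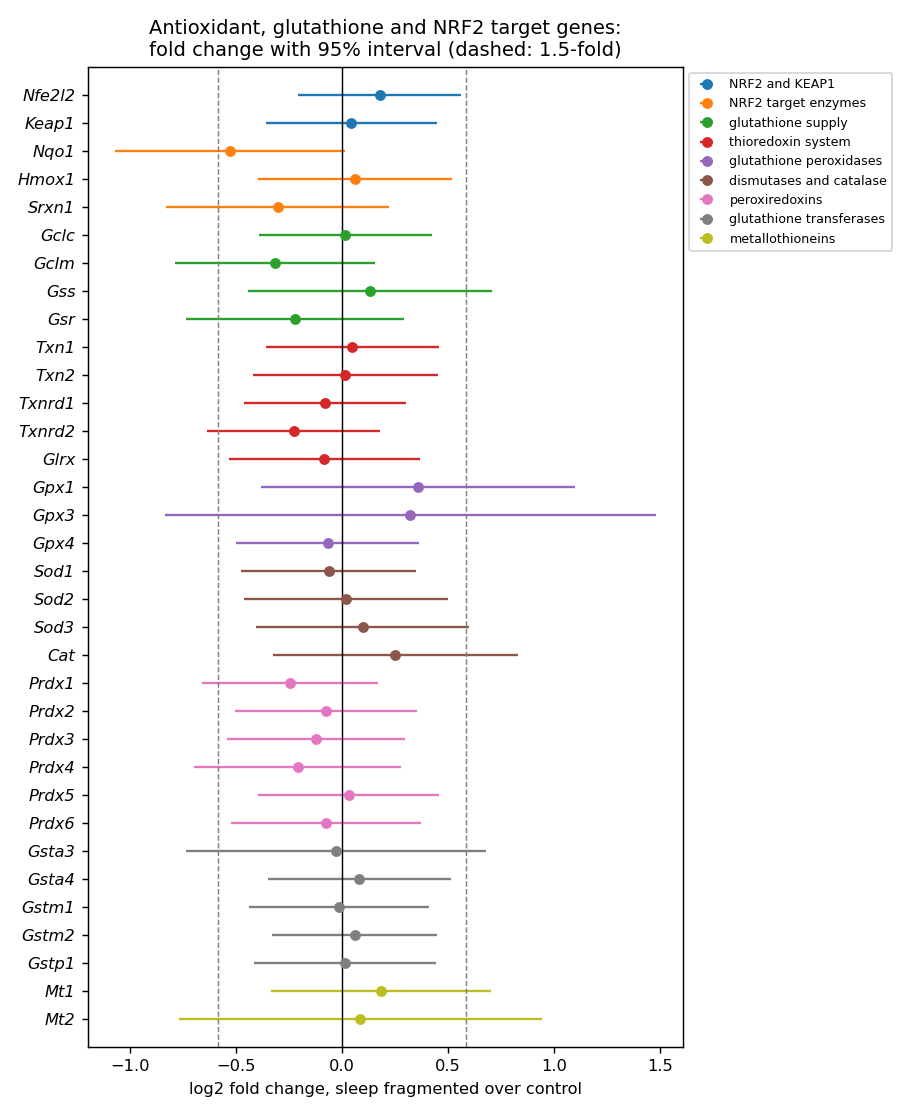
Log2 fold change of the 34 measured members, sleep fragmented over control (horizontal axis), 1 gene per line and coloured by role. Points are the limma estimates from 3 arrays a group, bars are 95% intervals, and dashed lines mark 1.5-fold; every interval includes 0, and those of Gpx3, Gpx1 and Mt2 are among the widest.

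Nfe2l2, the gene of NRF2, had log2 signals of 3.80, 3.81 and 3.80 on the sleep fragmented arrays, against 3.77, 3.55 and 3.56 on the control arrays. It was the only member whose groups did not overlap (1 of 34, 2.94%, where groups of 7.64% of all genes did not, 3.64% higher and 3.99% lower), and the nearest control array lay 0.03 below the sleep fragmented ones. The log2 fold change was 0.18 ± 0.17 (SE), with an unadjusted p of 0.327. Keap1, whose product targets NRF2 for degradation, had 0.62, 0.57 and 0.86 on the sleep fragmented arrays, against 0.58, 0.58 and 0.76 on the control arrays. These values interleave, and the log2 fold change was 0.04 ± 0.18.

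NRF2's binding partners and competitors gave log2 fold changes between -0.10 and 0.21, and none passed the test. Of the small Maf proteins, which pair with NRF2 on DNA, Mafk had a log2 fold change of 0.21 ± 0.21. Maff had -0.10 ± 0.20 and Mafg -0.03 ± 0.24. The repressors Bach1 and Bach2, which occupy the same DNA elements, had -0.01 ± 0.22 and 0.01 ± 0.22. Nfe2l1, a relative of NRF2, had 0.09 ± 0.25. No unadjusted p among these 6 genes was below 0.338.

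Of 3 enzymes that serve as textbook readouts of NRF2, Nqo1 stood lowest. Nqo1 encodes a reductase that detoxifies quinones. Its log2 signals were 0.83, 0.32 and 0.80 on the sleep fragmented arrays and 0.82, 1.53 and 1.19 on the control arrays. Control replicate 1 lies among the sleep fragmented arrays, while control replicates 2 and 3 lie above all of them. The log2 fold change of -0.53 ± 0.24 (95% interval -1.07 to 0.02) corresponds to 1.44-fold lower and did not pass the test. Srxn1, the gene of sulfiredoxin, which repairs over-oxidised peroxiredoxins, had 2.48, 2.22 and 2.48 in the sleep fragmented group, against 2.30, 3.10 and 2.70 in the control group. Its log2 fold change was -0.30 ± 0.23, and again control replicate 2 was the highest of all arrays and sleep fragmented replicate 2 the lowest.

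Hmox1, which opens the haem ring, was measured by 2 probes. The brighter gave 1.35, 0.97 and 1.07 on the sleep fragmented arrays, against 0.80, 1.24 and 1.17 on the control arrays, with a log2 fold change of 0.06 ± 0.20. The dimmer gave 0.30, -0.54 and 0.89 on the sleep fragmented arrays, against -0.55, -0.35 and -0.14 on the control arrays, with a log2 fold change of 0.56 ± 0.33. Both probes had overlapping groups and neither passed the test.

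**Figure D2:**
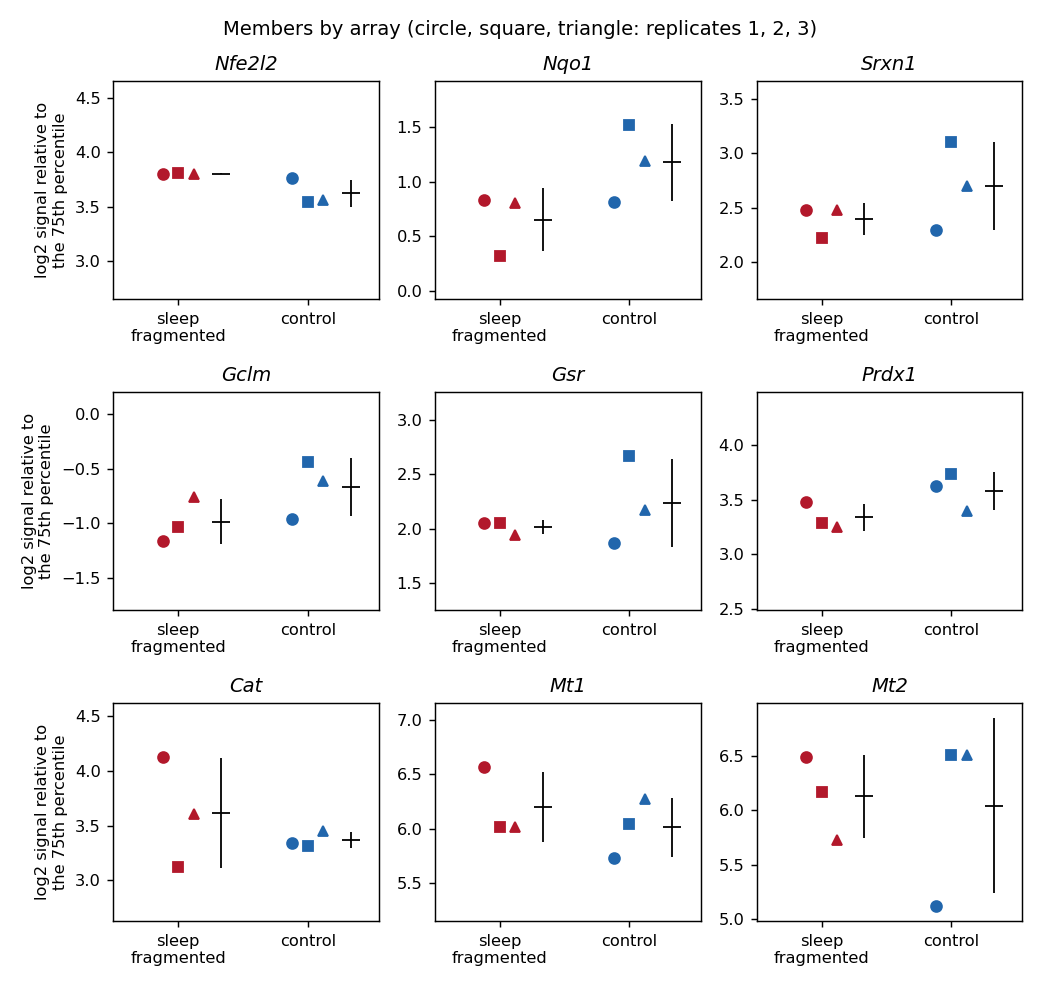
Log2 signal relative to the 75th percentile of the array (vertical axes, which do not start at 0 and each span about 2 log2 units) for 9 members, sleep fragmented on the left and control on the right of each panel. Circles, squares and triangles are replicates 1, 2 and 3, and the bar beside them is the mean with its SD over 3 arrays; for Nqo1, Srxn1, Gclm and Gsr control replicate 2 (blue square) is the highest of the 6 arrays.

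Glutathione supply gave 4 measured members, 2 above and 2 below 0 (3 below with normexp and all 4 with median scaling). Gclc, the catalytic subunit of the enzyme that limits glutathione synthesis, had 0.55, 0.88 and 0.88 on the sleep fragmented arrays, against 0.79, 0.69 and 0.78 on the control arrays, a log2 fold change of 0.02 ± 0.18. Gclm, its modifier subunit, had -1.16, -1.04 and -0.76 on the sleep fragmented arrays, against -0.96, -0.44 and -0.61 on the control arrays. Its log2 fold change was -0.32 ± 0.21 with overlapping groups, so that the 2 subunits of 1 enzyme had different estimates, neither of which passed. The synthase Gss, which adds glycine, had a log2 fold change of 0.13 ± 0.25. Gsr, the reductase that recycles oxidised glutathione, had 2.05, 2.06 and 1.94 on the sleep fragmented arrays, against 1.87, 2.67 and 2.17 on the control arrays. Its log2 fold change of -0.22 ± 0.23 became -0.01 without control replicate 2. A dimmer Gsr probe gave -0.04 ± 0.24.

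Slc7a11, the cystine importer that feeds glutathione synthesis, was not well above background on any of the 6 arrays. Its probe read 4.69, 4.72 and 4.10 signal units on the sleep fragmented arrays and 4.91, 3.67 and 5.12 on the control arrays, so no fold change is given.

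The thioredoxin system had 5 measured members, with log2 fold changes between -0.23 and 0.05. Txnrd1, the cytosolic thioredoxin reductase, had 2.82, 2.75 and 2.89 on the sleep fragmented arrays, against 2.90, 2.83 and 2.98 on the control arrays. Its log2 fold change was -0.08 ± 0.17, with an SD within groups of only 0.07. Txnrd2, the mitochondrial reductase, had a log2 fold change of -0.23 ± 0.18. The thioredoxins themselves had 0.05 ± 0.18 (Txn1, cytosolic) and 0.01 ± 0.19 (Txn2, mitochondrial). Glrx, a glutaredoxin that removes glutathione from proteins, had -0.08 ± 0.20.

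Of the 3 glutathione peroxidases, Gpx1 and Gpx3 varied widely from array to array. Gpx1, the cytosolic enzyme, had 2.85, 2.65 and 1.84 on the sleep fragmented arrays, against 1.65, 2.64 and 1.97 on the control arrays. Each group thus spans about 1 log2 unit, and the log2 fold change of 0.36 ± 0.33 had an unadjusted p of 0.299. Gpx3, the form secreted into plasma, had 2.28, 3.92 and 1.98 on the sleep fragmented arrays, against 1.79, 3.18 and 2.25 on the control arrays. Replicate 2 was the highest of its group on both sides, and the log2 fold change was 0.32 ± 0.51, which became -0.27 without sleep fragmented replicate 2. Gpx4, which reduces lipid peroxides in membranes, had 3.91, 3.46 and 3.67 in the sleep fragmented group, against 3.62, 3.86 and 3.77 in the control group. Its log2 fold change was -0.07 ± 0.19.

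Gpx3 was highest on the array of each group on which the mean atrial and adipocyte log2 signals were highest. The summed linear signal of the 4 atrial markers, relative to the 75th percentile, was 32.7, 298 and 61.2 on the sleep fragmented arrays and 15.6, 214 and 53.7 on the control arrays. The sum of the 4 adipocyte markers was 118, 96.5 and 66.3 on the sleep fragmented arrays and 72.8, 80.0 and 74.96 on the control arrays. Of these, Adipoq, Cfd and Retn were highest on replicate 2 of both groups. Fabp4, which makes up most of the sum, was highest on sleep fragmented replicate 1. Its log2 signal there was 6.87, where Adipoq, Cfd and Retn were at -2.655, -1.41 and -1.88. The part of these tissues in the level of Gpx3 was not tested.

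**Figure D3:**
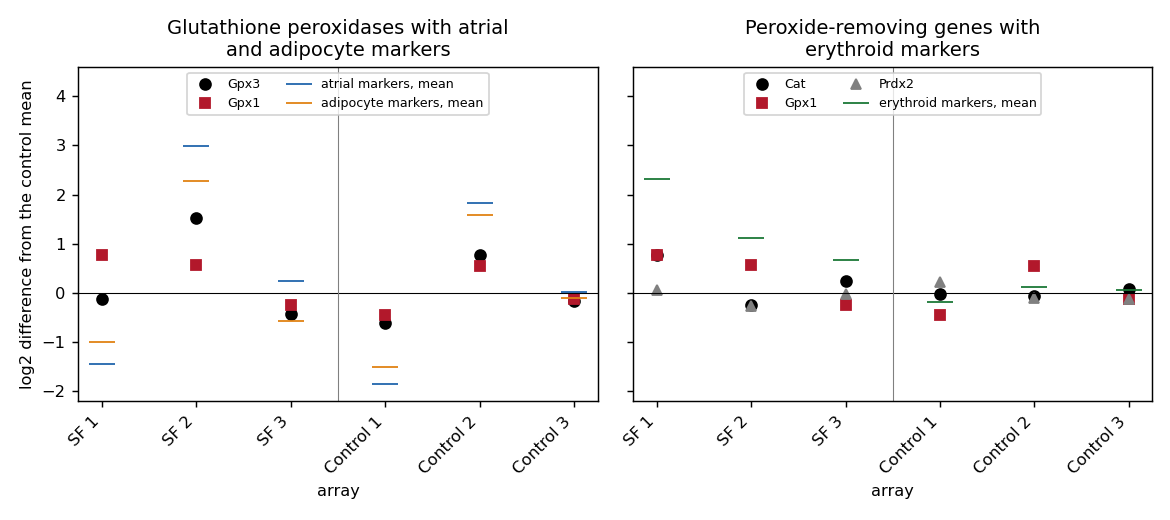
Log2 difference from the mean of the control arrays (vertical axis) on each array (SF is sleep fragmented). Symbols are single member genes and horizontal dashes are the mean over a marker list. Gpx3 peaks on replicate 2 of both groups with the means of the atrial and adipocyte markers (left). The erythroid mean is highest on sleep fragmented replicate 1, where Cat and Gpx1 are also highest (right). That array was the highest of the 6 for 28.5% of all genes.

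None of the 3 superoxide dismutases, nor catalase, passed the test. Sod1, the cytosolic copper and zinc enzyme, had 6.36, 6.17 and 6.27 on the sleep fragmented arrays, against 6.15, 6.53 and 6.31 on the control arrays, a log2 fold change of -0.06 ± 0.18. Sod2, the manganese enzyme of mitochondria, had 5.88, 5.27 and 5.63 on the sleep fragmented arrays, against 5.66, 5.37 and 5.69 on the control arrays, a log2 fold change of 0.02 ± 0.21. Sod3, the extracellular enzyme, had 2.47, 2.80 and 2.09 on the sleep fragmented arrays, against 2.42, 2.47 and 2.18 on the control arrays, a log2 fold change of 0.10 ± 0.22. The groups of all 3 dismutases interleaved, and their 95% intervals lay within 2-fold.

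Cat, the catalase of peroxisomes, had 4.13, 3.12 and 3.61 on the sleep fragmented arrays, against 3.34, 3.31 and 3.45 on the control arrays. The sleep fragmented group holds both the highest and the lowest of the 6 arrays, and the log2 fold change was 0.25 ± 0.26. A second, dimmer Cat probe gave -0.06 ± 0.21, so the probes had opposite signs. Cat, Gpx1 and Prdx2 are also abundant in red blood cells. The summed linear signal of the 5 erythroid markers was 403, 265 and 166 on the sleep fragmented arrays and 111, 122 and 107 on the control arrays. Cat and Gpx1 were highest on sleep fragmented replicate 1, which also had the highest erythroid sum, whereas Prdx2 was highest on control replicate 1. Sleep fragmented replicate 1 also had the highest mean of the heart muscle markers, and was the highest of the 6 arrays for 28.5% of all genes. The part of red cells in these values was not tested.

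Of the 6 peroxiredoxins, thiol enzymes that reduce peroxides, 5 had estimates below 0 with the 75th percentile or quantile scaling, and all 6 with median scaling or normexp background correction, but only 3 of 6 without sleep fragmented replicate 2. None passed the test. Prdx1, a cytosolic form, had 3.48, 3.29 and 3.25 on the sleep fragmented arrays, against 3.62, 3.74 and 3.39 on the control arrays, a log2 fold change of -0.24 ± 0.18. Its second, dimmer probe had groups that did not overlap, with -0.34, -0.42 and -0.17 on the sleep fragmented arrays, against -0.05, 0.22 and -0.01 on the control arrays. That probe's log2 fold change was -0.36 ± 0.18, with an unadjusted p of 0.0737 and an adjusted p of 0.938. Prdx2, also a cytosolic form, had a log2 fold change of -0.08 ± 0.19. Prdx3 of mitochondria had -0.12 ± 0.19 and Prdx4 of the secretory pathway -0.21 ± 0.22. Prdx5 had 0.03 ± 0.19, and Prdx6, which also acts on phospholipid peroxides, had -0.08 ± 0.20. Of 4 Prdx6 probes, 1 was too dim to use and 1 of the other 3 had the opposite sign (0.09 ± 0.22).

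Glutathione transferases attach glutathione to electrophiles. The log2 fold changes of the 5 measured here, by the brightest probe of each, ran between -0.03 and 0.08. Gsta3 had 1.01, 1.02 and 0.73 on the sleep fragmented arrays, against 0.24, 1.58 and 1.02 on the control arrays, so its control arrays were far more spread (SD 0.67) than its sleep fragmented ones (SD 0.16). Gsta4, which clears a product of lipid peroxidation, had a log2 fold change of 0.08 ± 0.19. Gstm1 had -0.01 ± 0.19, Gstm2 0.06 ± 0.17 and Gstp1 0.01 ± 0.19. The second Gstm1 probe had the opposite sign (0.07 ± 0.17), within its error. Dimmer probes gave -0.20 ± 0.27 for Gsta3, 0.15 ± 0.18 and 0.13 ± 0.19 for Gstm2, and 0.03 ± 0.185 for Gstp1. Genes of the Gstm family resemble each other in sequence, so the value of a single one is uncertain where a probe binds more than 1 of them.

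Both metallothioneins had strong signals. Mt1 had 6.57, 6.01 and 6.02 on the sleep fragmented arrays, against 5.73, 6.04 and 6.27 on the control arrays, a log2 fold change of 0.19 ± 0.23. Mt2 had 6.49, 6.17 and 5.73 on the sleep fragmented arrays, against 5.12, 6.51 and 6.50 on the control arrays, a log2 fold change of 0.09 ± 0.38. For both genes, the highest sleep fragmented array was replicate 1 and the lowest control array replicate 1, and the control arrays enclosed or overlapped the sleep fragmented ones.

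**Figure D4:**
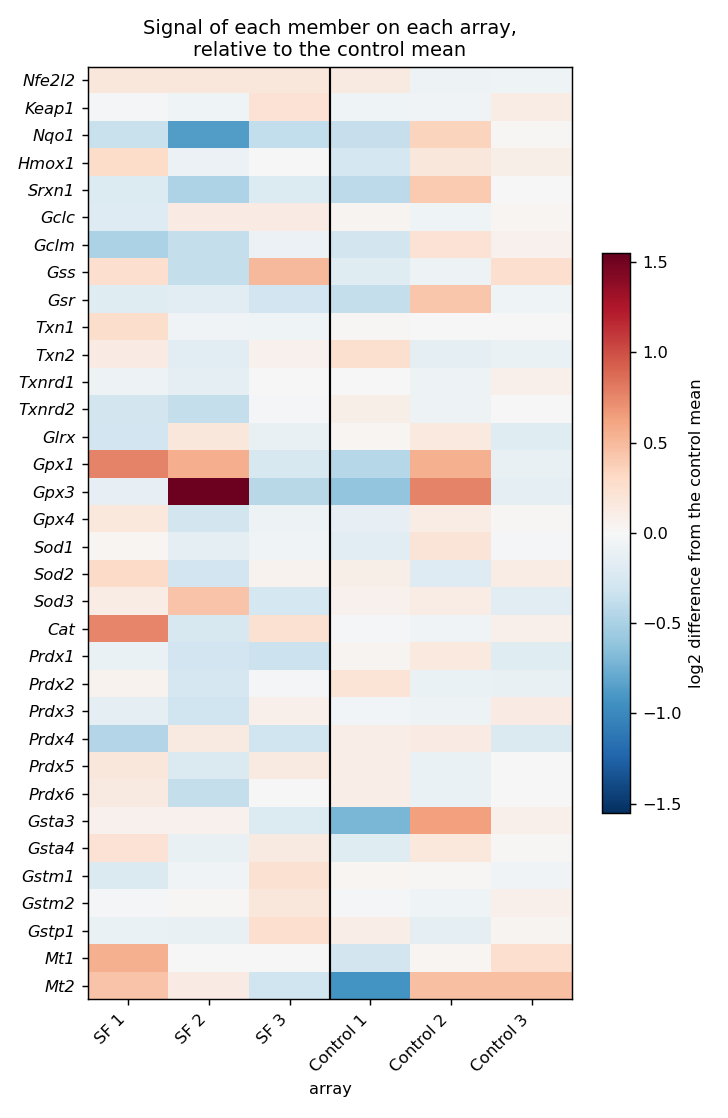
Log2 difference of each of the 34 members (rows) from its mean over the control arrays, on each of the 6 arrays (columns, sleep fragmented (SF) left of the line and control right of it). Red is higher and blue lower; sleep fragmented replicate 2 has the lowest value of 14 members, and control replicate 2 the highest of 8.

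Single arrays stood at the extreme for many members. Sleep fragmented replicate 2 was the lowest of the 6 arrays for 14 of 34 members (41.2%, where it was lowest for 17.1% of all genes). These were Keap1, Nqo1, Srxn1, Gss, Txn2, Txnrd1, Txnrd2, Gpx4, Sod2, Cat, Prdx2, Prdx3, Prdx5 and Prdx6. Control replicate 2 was the highest for 8 members (23.5%, where it was highest for 14.96% of all genes), namely Nqo1, Srxn1, Gclm, Gsr, Prdx1, Sod1, Gsta3 and Mt2. It was the lowest for 3 members (8.82%), where it was lowest for 37.0% of all genes. Sleep fragmented replicate 1 was the highest for 10 members (29.4%, close to its 28.5% of all genes). Control replicate 1 was the lowest for 9 members (26.5%, where it was lowest for 11.9% of all genes). Without control replicate 2 the log2 fold changes were -0.35 for Nqo1, -0.10 for Srxn1 and -0.20 for Gclm.

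The same replicates stand out by their cell markers. Both replicates 2 carry the high atrial and adipocyte means given above. Control replicate 2 also had the highest neutrophil markers (3 of 4 measured, without Ly6g), whose mean log2 signal was -1.598, -2.48 and -2.15 on the sleep fragmented arrays and -2.68, 0.28 and -1.09 on the control arrays. The 4 lymphocyte markers averaged -1.45, -1.77 and -1.97 on the sleep fragmented arrays and -2.29, -0.05 and -1.85 on the control arrays. On control replicate 2, Jchain and Cd79b were the highest of the 6 arrays, Cd79a was not, and Cd3e was the lowest. Their part in the values of Nqo1, Srxn1, Gclm and Gsr was not tested.

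The file headers give the arrays of each group the same 3 barcode entries, 1 for each replicate number, which may be positions on a slide and are not taken to pair the samples. Between arrays of the same entry the median log2 difference of the members, sleep fragmented minus control, was 0.05, -0.14 and -0.06, where that of all genes was 0.09, 0.09 and -0.01. Nqo1 differed by 0.02, -1.21 and -0.39, where sleep fragmented replicate 2 was its lowest array and control replicate 2 its highest.

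The sign of small differences depended on the scaling. With each array's median in place of its 75th percentile, the median of all genes was -0.16, and that of the members -0.20. This scaling moves every gene by the same amount: 3 of the 34 members and 26.9% of all genes were then above 0. Above 0 were 18 members and 49.6% of all genes with quantile normalisation, and 11 members and 60.4% of all genes with normexp. The member median minus that of all genes was -0.04 with the 75th percentile, 0.01 with quantile normalisation and -0.12 with normexp. Nfe2l2 separated the groups with the 75th percentile, quantile normalisation and the authors' deposited table. That table nearly repeats the fold changes of quantile normalisation and is not a separate check. The groups of Nfe2l2 overlapped with normexp and with median scaling, where its log2 fold change was -0.03. Other members were lower without overlap under those settings: Nqo1 and Prdx1 with normexp, and Nqo1, Srxn1, Gclm, Txnrd1 and Prdx3 with median scaling. The share of all genes without overlap was not counted under those settings, so these names say nothing particular about the members. Of the 34 members, 10 had the same sign in all 16 alternatives, 4 of which leave every fold change as it was by construction: Nqo1, Srxn1, Gclm, Gsr, Txnrd1, Txnrd2, Prdx1, Prdx3 and Prdx4 below 0, and Gpx1 above. Nqo1 ran between -0.74 and -0.29 over these alternatives, and 0 members passed the adjusted threshold in any of them.

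**Figure D5:**
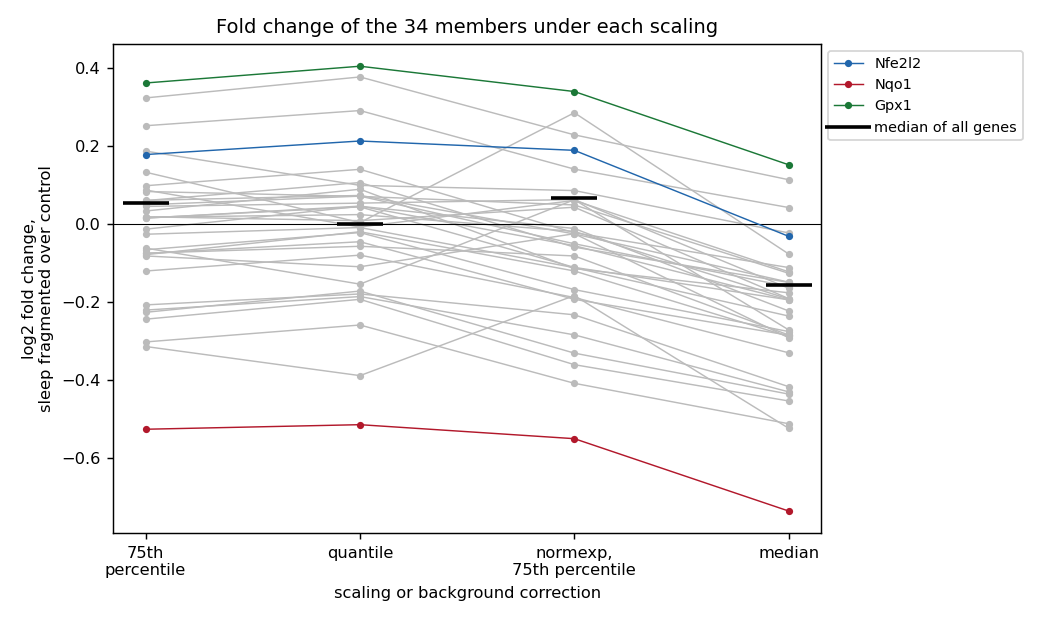
Log2 fold change of the 34 members, sleep fragmented over control (vertical axis), under 4 ways of scaling or background correction (horizontal axis). Each line is 1 gene and the black dashes are the median of all genes; Nqo1 is the lowest and Gpx1 is above 0 under all 4, and with median scaling 3 of the 34 members are above 0.

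A wider list of 150 genes of NRF2 control, NRF2 targets, glutathione, thiol redox, metal handling and sources of reactive oxygen gave 135 measured genes. None passed the adjusted threshold. At an unadjusted p under 0.05 there were 4 (2.96%, equal to the share of all genes), with 3 higher and 1 lower, where 1.84% of all genes were higher and 1.13% lower. Abcc3, an exporter of conjugates, had -1.46, -1.32 and -1.42 on the sleep fragmented arrays, against -2.01, -1.83 and -2.18 on the control arrays, a log2 fold change of 0.61 ± 0.18. Trim21, a ubiquitin ligase, had 0.11, 0.67 and 0.22 on the sleep fragmented arrays, against 0.98, 1.21 and 0.72 on the control arrays, a log2 fold change of -0.63 ± 0.22. The groups of both genes did not overlap. Phgdh, the first enzyme of serine synthesis, had a log2 fold change of 0.48 ± 0.21, and Sesn3, a sestrin, had 0.54 ± 0.24. The median log2 fold change of the 135 genes was 0.02, with 73 above 0 and 62 below.

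By group, 0 of 37 further glutathione genes, 0 of 11 metal handling genes and 0 of 10 sources of reactive oxygen had an unadjusted p under 0.05. The count was 1 of 16 for NRF2 control (Trim21), 2 of 34 for further NRF2 targets (Abcc3 and Phgdh) and 1 of 27 for thiol redox genes (Sesn3).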

How the data were processed

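Total RNA from 6 ventricle samples, 3 sleep fragmented and 3 control, was measured on 1-colour Agilent arrays of design 026655. Groups and replicate numbers come from the sample titles. Per the file headers, Agilent Feature Extraction 11.0.1.1 produced the intensity values (background-subtracted, spatially detrended), while the submitters' processing notes name 10.5.1.1. The deposited flags (0 or 1 per spot, for detection, saturation and outliers) are other values. The authors also deposited a table of log2 values, with no account of how it was made in the sources used here. Its columns all have a median of 5.53 and a 75th percentile of 7.66, and each correlates with the log2 signal of its own array with r of at least 0.998, so it was used as an alternative only, with no centring by gene. Its fold changes nearly repeat those of quantile normalisation (Nqo1 -0.516 and -0.5156, Nfe2l2 0.2127 and 0.2119). It is therefore not a separate check beside that alternative.

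Values are log2 processed intensity minus the array's own 75th percentile over non-control probes. Control and outlier spots (180 to 240 per array of 44397) were left out and spots of 1 probe averaged. Probes were kept where the flag put them well above background on all 3 arrays of either group (25222), and the brightest kept probe stood for a gene. RefSeq accessions matched to the GRCm38.p6 gene table named 27234 probes (69.1%). Groups were compared with limma 3.58.1 (R 4.3.3; lmFit and eBayes, two-sided, Benjamini-Hochberg over all kept probes, threshold 0.05), which gave 0 probes past the threshold, a smallest adjusted p of 0.550 and 735 probes at an unadjusted p under 0.05. Errors are moderated standard errors, and the number of arrays limits the precision. The fit was tested on simulated data. One listed marker is not reported here. The members, lists and markers were chosen with earlier results of these data known.

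All members were named; values on every array were to be given for 16 set members and any with an unadjusted p under 0.05 or without overlap, and of the wider list up to 12 genes under that p with the Maf and Bach families and Nfe2l1. Values on every array of other members (Srxn1, Gclm, Gsr, Prdx1, Gsta3) were added after they were seen. The normexp alternative used the median spot signal (offset 50), because the mean signal is not a column used here.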

Additional observations from a re-analysis of the deposited data

How the results depend on the processing

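In all 16 alternatives 0 members passed the adjusted threshold. Over all probes the count past it was 0, except 3 with normexp and 4 with the replicate block. Members at an unadjusted p under 0.05 numbered 0, except 3 with normexp (Nqo1, Srxn1 and Prdx1) and 1, Nqo1, with quantile normalisation, median scaling, the authors' deposited table and a trended, robust prior. The share of all genes at that p was 2.96% in the main fit, 3.84% with normexp, 3.53% with quantile normalisation and 4.85% with median scaling. It was 3.48% with the authors' deposited table and 3.00% with the trended, robust prior. Leaving out 1 array gave 0 to 1 (Nqo1, without control replicate 1, where 1.94% of all genes were at that p). The median log2 fold change of the members was 0.01, against -0.054 with normexp, -0.20 with median scaling and -0.057 to 0.030 without 1 array. Wider-list genes at that p numbered 4, against 9 with normexp, 8 with median scaling, 2 without the filter on dim probes, and 2 to 8 without 1 array (8 without control replicate 3, 2 without sleep fragmented replicate 3, control replicate 1 or control replicate 2). Of all genes, 10.1% were at that p without control replicate 3, and 1.65% without the filter on dim probes. The share was 3.14% without sleep fragmented replicate 3, 1.94% without control replicate 1 and 2.24% without control replicate 2. Of 544 member values under an alternative (4 of the 16 cannot move them), 73 had the other sign and 21 moved by more than 1 SD; the cause was not tested. With limma's array weights, Nqo1 was -0.29. The deviations of same-numbered arrays from their group means correlated with r of 0.06, 0.55 and 0.21. For differently numbered arrays r ran between -0.50 and 0.36. The numbers are not taken to pair the samples. The replicate block, identical to one on the barcode entry, gave Nqo1 an unadjusted limma p of 0.0581. The block did change other results. Probes at an unadjusted p under 0.05 rose from 735 to 2018, and genes from 2.96% to 7.26%. The standard error of Gpx3 fell from 0.51 to 0.22, with an unadjusted p of 0.183 against 0.5445 in the main fit.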

Other observations

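Among the 135 measured genes of the wider list, 5 were higher and 7 lower on all sleep fragmented arrays than on all control arrays, where 3.64% and 3.99% of all genes were. The genes named here were chosen after their values were seen, and none passed the adjusted threshold. Atp7a, a copper exporter, had the tightest groups, with -0.99, -0.99 and -0.96 on the sleep fragmented arrays, against -1.31, -1.30 and -1.25 on the control arrays, a log2 fold change of 0.31 ± 0.16. Slc3a2, the partner subunit of the cystine importer, had 0.45, 0.42 and 0.27 on the sleep fragmented arrays, against 0.14, 0.06 and 0.16 on the control arrays. Esd, which acts on a glutathione conjugate of formaldehyde, had 3.79, 3.71 and 3.83 on the sleep fragmented arrays, against 3.96, 4.17 and 4.22 on the control arrays. Gsta2, a relative of Gsta3, had -0.80, -2.00 and -0.995 on the sleep fragmented arrays, against -0.79, -0.20 and -0.78 on the control arrays, with replicate 2 at the extreme of each group.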
